A study of Oryctolagus cuniculus with 3 samples.

Results

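A set of 141 probes on an Agilent rabbit array was high in the atherosclerotic abdominal aorta of a rabbit at day 30 and near the control level in that of another rabbit at day 60. The probes were chosen from the measured values themselves, among 43603 gene probes. The deposited value of a probe is its log2 signal after normalization, and values under a floor of 4.37, the 40th percentile of all gene probes, were set to that floor before any difference was taken. A probe was kept if the model array was at least 2 above the control array on this scale, which is 4-fold, and the recovery array was within 0.5 of the control array. Of the 147 probes that met both limits, 6 were left out because they matched genes that the rule leaves out by name (SST, NPY, SYT1, NEFH, RESP18 and MMP12). TH, GAP43 and CX3CR1 were to be left out as well, but their matched probes did not meet the limits. Since these differences chose the probes, they are given as a description and were not tested.

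The series comprised 3 arrays from adult male New Zealand white rabbits, with 1 abdominal aorta in each group. The control rabbit (day 0) was uninjured and fed chow with no added cholesterol or fat. The model rabbit (day 30) had received a diet supplemented with cholesterol and peanut oil and a balloon injury of the abdominal aorta, and the recovery rabbit (day 60) had received the same diet and injury and was then moved to chow without added cholesterol or fat. The sample labels call this second diet normal, whereas the methods of the study describe restricted intake. The title of the control array also carries the letters PBS, which the labels do not explain. The authors picked the aorta to be hybridized in each group after looking at histology and intravascular ultrasound (IVUS), so each value belongs to 1 chosen rabbit, no spread between rabbits is known and no p-value can be given.

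Of the 24 genes that could be named in this set, 12 stand on lists of genes of nerve cells, or 10 of 22 without NPY and SYT1, and such genes made up 1.76% of all named probe sets. These lists were chosen with earlier results of these data known. Sympathetic neurons lie in ganglia outside the vessel and send axons into the adventitia of arteries, where they release noradrenaline together with neuropeptide Y. Their axons are filled with neurofilaments and microtubules, their terminals carry a machinery for vesicle release, and their mRNAs are bound by neuronal members of the ELAV family. A few others act in the immune response, in which macrophages, dendritic cells and B cells present peptides on major histocompatibility complex (MHC) class II molecules.

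The 141 probes were 0.323% of all gene probes and 12.5% of the 1130 probes that were at least 4-fold higher in model than in control. As background, those 1130 were 3.90% of the 28953 probes that exceeded the floor on any array, and the 147 that also returned were 0.508%. Their signal in the model array had a median of 7.72 and ranged between 6.37 and 13.87. Their median difference between model and control was 2.57 on the log2 scale, or 5.93-fold, and 57 probes exceeded 8-fold. In 96 of the 141 the control value lay below the floor and in 95 the recovery value did, so that each fold resting on such a value is a lower bound. For 87 probes (61.7%) this held in both arrays, for 17 in only 1 of them, and 37 probes were above the floor in all 3 arrays.

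In the 37 probes above the floor in all 3 arrays the differences do not rest on floored values, although the limits still set their range. Their control values lay between 4.62 and 11.39 with a median of 6.15, and the model array was higher than control by a median of 2.29, with a range of 2.02 to 5.06. The recovery array was above control in 21 of them and below it in 16, with a median difference of 0.03. These 37 probes came from 20 probe sets, so they are fewer independent measurements than their number.

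The limits divide a continuous range. The probe just inside the rise limit differed by 2.0006 between model and control and the probe just outside it by 1.998. Among probes that met the rise limit, recovery minus control was 0.494 just inside the return limit and 0.559 just outside it on the upper side. On the lower side it was -0.471 just inside and -0.638 just outside.

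Probe numbers on this array run in sets of up to 5 consecutive numbers. The edges of the sets shift once, at number 29241. That place was chosen so that neighbours within a set were most alike in model minus control. The correlations that follow are therefore not independent of this choice. Over 14313 pairs of neighbours within a set the differences between model and control correlated with r = 0.973, whereas over 1575 pairs of neighbours across the edge of a set r was 0.0028. These pairs share their arrays and are a description, and probes of 1 set are not treated here as separate genes. The 141 probes came from 64 sets, of which 17 hold a single probe. In 20 of the 47 larger sets every probe was chosen, and in 14 only 1 was. The 47 sets hold 179 probes, 124 of them chosen. Within a set the differences between model and control spanned a median of 0.484 and at most 3.27. By the median of its probes, 48 of the 64 sets met both limits.

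Genes were named through the differential gene table of the study, which lists the ratios of each gene to control. These ratios were put on the log2 scale here before matching. The chosen probes have no gene name of their own in the deposited values. Where exactly 1 probe matched both ratios of a gene within 0.006, it was given that gene's name, and this named 9 of the 141 probes (FOXN4, PCSK1N, TMEFF2, SPOCK3, RLA-DMA, CRISPLD1, ANO4, RGS10 and LOC100008895). After the values had been seen, the ratios of the table were found to match the medians of probe sets more often than single probes, with 2928 of 3715 genes matching exactly 1 set, against 2186 matching exactly 1 probe. Naming by set median kept all 9 names and gave names to 36 further probes, making 45 probes of 24 genes. All of these genes were in the table because the study had found them to differ between these same arrays, so their presence among the named probes is not independent evidence. The symbols of 22 of the 24 were found in the RefSeq rabbit annotation.

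STMN2 encodes stathmin-2, a microtubule regulator of growing axons. Its 5 probes gave values of 3.92 to 4.29 in control, 11.57 to 11.77 in model and 3.27 to 3.84 in recovery. Every control and recovery value was thus below the floor and every model value far above it, which corresponds to at least 147-fold to at least 169-fold higher signal in model than in control. The RNA came from excised aorta as a whole, in which more cells of a type and more RNA per cell cannot be told apart.

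NEFM encodes the medium chain of the neurofilament, the intermediate filament of large axons. Its 3 probes were at 0.48 to 0.79 in control, at 8.36, 9.36 and 10.30 in model and at 0.31 to 0.61 in recovery. After the floor the 3 probes spread more widely than those of STMN2, with model at least 15.8-fold, at least 31.8-fold and at least 60.6-fold above control, but all 3 were below the floor in control and in recovery. RTN1 encodes a reticulon of the endoplasmic reticulum that is abundant in neurons and neuroendocrine cells. Its 5 probes lay at 3.55 to 3.85 in control, 7.44 to 7.51 in model and 0.32 to 0.85 in recovery, a spread of only 0.07 within the set, and were at least 8.38-fold to at least 8.79-fold higher in model than in control.

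Vesicle release was represented by SNAP25, a component of the SNARE complex that fuses synaptic vesicles with the membrane. The chosen SNAP25 probe read 0.33 in control, 6.81 in model and 0.33 in recovery, or at least 5.42-fold higher in model than in control. The other probe of the set read 0.41 in control, 5.86 in model and 2.11 in recovery and reached a floored difference of 1.49, so the set median of 1.96 fell just short of the limit.

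NPY, a co-transmitter of sympathetic neurons, and SYT1, the calcium sensor of vesicle fusion, had been left out by name, but only 1 probe of each set of 5 had matched singly. The other 4 NPY probes, at 0.41 to 3.24 in control, 11.99 to 12.19 in model and 2.54 to 4.43 in recovery, and 3 other SYT1 probes, at 2.47 to 2.91 in control, 7.72 to 7.99 in model and 0.30 to 0.55 in recovery, therefore remained among the 141. Without these 7 probes, 134 probes remained, 38 of them with names of 22 genes, and the median difference between model and control was 2.53. The remaining SYT1 probe, unlike these, was above the floor in control, with 5.78 in control, 8.17 in model and 3.09 in recovery.

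PCSK1N encodes proSAAS, a secretory granule protein that inhibits prohormone convertase 1. Its probe read 3.12 in control, 7.26 in model and 2.57 in recovery, or at least 7.40-fold higher in model than in control. ELAVL4 encodes HuD, an RNA-binding protein of neurons that stabilizes mRNAs. Its 2 probes read 1.99 and 1.33 in control, 7.48 and 6.92 in model, and 0.53 and 1.65 in recovery, at least 8.60-fold and at least 5.86-fold higher in model than in control. Both genes were detected above the floor in the model aorta only.

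SPOCK3 encodes testican-3, a proteoglycan of brain matrix, and its probe read 4.38 in control, 6.95 in model and 0.44 in recovery, which is 5.93-fold higher in model than in control with a control value just above the floor. TMEFF2 encodes a transmembrane protein with follistatin-like domains. Its chosen probes read 3.19 and 0.82 in control, 7.03 and 6.67 in model and 4.04 and 0.36 in recovery, at least 6.32-fold and at least 4.91-fold higher in model than in control. The third TMEFF2 probe, at 4.03 in control, 7.15 in model and 4.97 in recovery, was left 0.60 above the floored control value in recovery and so was not chosen.

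In 3 further genes expressed in neurons only 1 probe of the set was chosen. LRRN3, a leucine-rich repeat membrane protein of neurons, read 4.27 in control, 6.61 in model and 3.94 in recovery at that probe. The differences between model and control of its other 2 probes were at least 1.37, with control below the floor, and 1.59. OMG, a membrane-anchored glycoprotein of myelin and neurons that restrains neurite growth, read 3.47 in control, 7.07 in model and 3.60 in recovery. Its other 2 probes, with control below the floor, had differences of at least 1.40 and at least 0.07. RIT2, a Ras-like GTPase expressed in neurons, read 4.64 in control, 6.66 in model and 4.96 in recovery. It is not on the lists of nerve-cell genes and is not in their counts. Its other 4 probes, with control below the floor, differed by at least 1.20 to at least 1.63. After the floor, these 3 genes thus met the rise limit by 1 probe and not by their set median. This depends on the floor. Without it, the set medians of model minus control were 2.34 for LRRN3, 3.86 for OMG and 4.95 for RIT2.

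The wider neuronal programme was counted over 7 lists of axonal, synaptic, peptide, catecholamine, channel, RNA-binding and adhesion genes with 147 genes, of which 51 were named by set median. Of these, 26 were at least 2-fold higher in model than in control and 4 were at least 2-fold lower (PENK, SNCG, CNTN1 and NOVA1). The other 21 differed by less, and the median difference over the 51 was 1.05. SNCG read 12.70 in control, 10.49 in model and 11.13 in recovery, and whether its signal came from nerve cells was not tested. Over all 2388 named sets that exceeded the floor on any array, 26.5% were at least 2-fold higher and the median difference was -0.52. Over all 14479 such probe sets, named or not, 10.0% were at least 2-fold higher and 13.9% at least 2-fold lower. Of the 26 genes, 15 hold a chosen or a left-out probe and so had a probe that met both limits. Among the 21 neuronal genes above the floor on some array that hold neither, 11 were at least 2-fold higher (52.4%). These 11 include TH and GAP43, which the rule names but whose probes missed the limits. As the lists were also chosen with earlier results known, neither this share nor the 72.2% is independent of the selection.

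By list, all 6 named axonal genes, 5 of 12 peptide and granule genes, 4 of 6 catecholamine genes, 5 of 10 adhesion genes, 3 of 9 channel genes, 2 of 5 synaptic genes and 1 of 3 RNA-binding genes were at least 2-fold higher in model than in control. No gene of the catecholamine list and none of the channel list held a chosen probe. Of the 26 higher genes, 20 were within 0.5 of control in recovery and 5 were still at least 2-fold above it. Those 5 were MAP2, a dendritic microtubule protein that is not confined to neurons, BDNF, a neurotrophin, TH, the rate-limiting enzyme of catecholamine synthesis, the adhesion molecule NCAM1 and the calcium channel subunit CACNA2D1. MAP2 read 5.83 in control, 7.91 in model and 7.96 in recovery, and BDNF read 6.95 in control, 11.49 in model and 9.23 in recovery.

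The low end of the scale also differed between the arrays for these genes. Of the 51 named neuronal genes, 21 exceeded the floor in model only, and 15 were below the floor in all 3 arrays. Without the floor, 14 of those 15 had a model value at least 1 above control, and 173 of the 512 named sets below the floor in all 3 arrays did so. Over all 5804 sets below the floor in all 3 arrays, named or not, the share was 8.94%. Named sets are in the study's table because they differed, so they are not a neutral background. CHRNA3, a nicotinic receptor subunit of ganglion neurons, is an example, at 0.44 in control, 3.51 in model and 0.45 in recovery. The pattern was not confined to nerve-cell genes. Among the listed hepatocyte genes, APOF read 0.44 in control, 3.74 in model and 0.44 in recovery, and PROC read 0.31, 2.41 and 0.31. After the floor, 3 of the 20 named hepatocyte genes were at least 2-fold higher in model than in control (15.0%, beside 26.5% of all named sets). Another 4 were at least 2-fold lower and 13 differed by less. Values below the floor were not read as expression, and no fold is given for them.

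Markers of other cell types also differed between model and control. Among Schwann and satellite glia genes, S100B was lower in model (9.74) than in control (13.34). The other 2 named genes, CDH19 and GLDN, were below the floor in model and in control. By set median, S100B differed from control by -3.58 in model and by -4.32 in recovery. Whether the S100B signal came from glia or from other cells was not tested, so no change of glia is read from it. None of the 11 adrenal genes listed was named, so they have no value here. All 8 named genes of contractile smooth muscle were higher in model than in control by a median of 4.06 and remained higher in recovery by 4.49. The 6 adipocyte genes had a median of -5.70 for model minus control and of -5.90 for recovery minus control. For the 7 lymphocyte genes these medians were -1.84 and -2.56, and for the 3 endothelial genes -2.53 and -1.90. By their medians these lists thus had not returned to control in recovery, unlike the 141 probes. How far the makeup of the excised tissue contributed to the 141 probes was not tested.

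RLA-DMA encodes the alpha chain of the rabbit class II molecule DM, which helps to load peptides onto MHC class II. Its probe read 11.39 in control, 13.87 in model and 11.53 in recovery. The model value was 5.58-fold that of control and 5.06-fold that of recovery, and all 3 values were far above the floor.

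The table row of RLA-DMB, the beta chain of the same molecule, matched 2 probe sets and was therefore given to neither. The first set held 5 probes, of which 4 were chosen, and its values ranged from 7.98 to 8.26 in control, from 9.87 to 10.36 in model and from 7.65 to 8.29 in recovery. The other set, a single probe, was below the floor in all 3 arrays. Of 11 listed class II genes, 3 had a name and all 3 were at least 2-fold higher in model than in control, beside 26.5% of all named sets. Only genes that the study had found to differ could be named, and the other listed class II genes were not counted. RLA-DRB1, a beta chain of the presenting molecule DR, read 11.18 in control, 13.62 in model and 12.76 in recovery. CD74, the invariant chain, read 8.97 in control, 10.06 in model and 9.81 in recovery. These genes remained above control in recovery, by 1.58 for RLA-DRB1 and by 0.83 for CD74, against 0.14 for RLA-DMA.

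RGS10, a regulator of G protein signalling in leukocytes, read 7.93 in control, 10.0 in model and 8.07 in recovery, or 4.19-fold higher in model than in control and 3.82-fold higher in model than in recovery. Its name is less certain, since 5 other probes had ratios within 0.05 of the table's. By the same measure 1 other probe lay near CRISPLD1. Among set medians, 2 other sets lay near LRRN3 and 1 near C12H6ORF163. CLEC7A encodes dectin-1, a receptor of macrophages and dendritic cells for fungal glucans. Its chosen probe read 4.38 in control, 6.44 in model and 2.5 in recovery, while the other 2 probes, at 5.0 and 5.09 in control, 6.72 and 6.84 in model and 4.26 and 3.59 in recovery, missed both limits, with 1.72 and 1.75 for model minus control and -0.62 and -0.72 for recovery minus control after the floor.

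Of the 16 listed macrophage genes 8 were named, of which 5 were at least 2-fold higher in model than in control and 1 (CTSB) at least 2-fold lower, beside 26.5% higher over all named sets. None holds a chosen probe, but the MMP12 probe met both limits and is missing only because the rule leaves it out by name. SPP1, encoding osteopontin, read 5.94 in control, 10.59 in model and 12.83 in recovery, and CTSK, encoding the collagen-degrading cathepsin K, read 11.12 in control, 12.89 in model and 13.15 in recovery. Both were higher still in recovery than in model. The other 3 higher genes, MMP12, a macrophage elastase, CX3CR1, the fractalkine receptor, and ITGAM, an integrin chain of myeloid cells, were within 0.5 of control in recovery.

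Other named genes include enzymes, growth factors and membrane proteins. ALDH1A2, the retinaldehyde dehydrogenase that makes retinoic acid, had 2 chosen probes at 4.19 and 5.31 in control, 7.23 and 7.81 in model, and 3.43 and 5.28 in recovery, the second of them measured in all 3 arrays and 5.65-fold higher in model than in control. PDGFD, a growth factor for mesenchymal cells through the PDGF receptor beta, read 7.15 in control, 9.35 in model and 7.60 in recovery at its chosen probe, 4.62-fold higher in model than in control. Its other probe, at 6.99 in control, 8.58 in model and 7.27 in recovery, missed the rise limit with a difference of 1.59. GPN3, a GTPase of the family that helps to assemble RNA polymerase II, read 6.14 and 5.75 in control, 8.45 and 8.13 in model, and 5.80 and 5.54 in recovery. Both GPN3 probes were measured in all 3 arrays, 4.94-fold and 5.18-fold higher in model than in control and lower in recovery than in control by 0.34 and 0.21.

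CRISPLD1, a secreted protein of the cysteine-rich CAP superfamily, read 5.55 in control, 7.80 in model and 5.78 in recovery, or 4.77-fold higher in model than in control. ANO4, a membrane protein of the anoctamin family, had 3 chosen probes between 0.32 and 2.49 in control, 6.54 and 7.60 in model and 3.42 and 4.59 in recovery, at least 4.49-fold to at least 9.38-fold higher in model than in control. On the unfloored scale the ANO4 values of recovery stood between those of control and model. FOXN4, a forkhead transcription factor known in mouse from the development of retina and spinal cord, read 3.17 in control, 7.48 in model and 3.46 in recovery, at least 8.59-fold higher in model than in control. LOC100008895, a symbol without a match in the RefSeq table, read 2.60 in control, 9.14 in model and 1.5 in recovery, at least 27.3-fold higher in model than in control. C12H6ORF163, which had no match there either, read 5.46 in control, 7.5 in model and 5.49 in recovery at its chosen probe, while its other 4 probes stayed under the rise limit with differences of 1.72 to just under 2.

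The other 96 probes, in 40 sets, had no name. In the model array they read between 6.37 and 12.13 with a median of 7.70, and they were higher in model than in control by a median of 2.5 and at most 5.88. In 28 of them all 3 arrays were above the floor, and in 55 both control and recovery were below it. The set with the largest median difference after the floor holds the probe A_04_P022147, at 2.62 in control, 10.25 in model and 2.41 in recovery. The probe with the largest difference among those measured in all 3 arrays was A_04_P023791, at 5.26 in control, 10.31 in model and 5.29 in recovery. Both lie in sets of 4 probes that were all chosen.

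Most probes that were high in model did not return. Of the 1130 probes at least 4-fold higher in model than in control, 753 were still at least 4-fold higher in recovery, 230 were neither that high nor within 0.5 of control, and 147 returned. Of the 141 returning probes 68.1% were below the floor in control, against 19.7% of the 753. A probe below the floor in control and in recovery meets the return limit by construction. With the same limits, 163 probes were set apart by a high value in recovery, 756 by a high value in control and 37 by a low value in model.

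The return itself was often not a return to the same value. Without the floor, recovery differed from control by 0.5 or more in 69 of the 141 probes, below control in 36 and above it in 33. For STMN2, NEFM, PCSK1N, RTN1 and ELAVL4 the recovery values carry no more than the statement that the signal was below the floor in the recovery rabbit, as in the control rabbit. Each array is a different rabbit, so a return here compares rabbits and does not follow 1 aorta over time. A trait of the 1 model rabbit cannot be told apart from a transient rise. With a higher floor, at the 60th percentile, 3 of the 9 singly named probes (RLA-DMA, RGS10 and LOC100008895) were still at least 4-fold higher in model than in control.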

How the data were processed

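Gene expression was measured with Cy3-labelled cRNA on single-colour Agilent rabbit arrays, 1 each for the control, model and recovery aorta. Images were read by the authors in Agilent Feature Extraction, for which the submitters' processing notes give version 10.7, and the signals were quantile-normalized in GeneSpring. The deposited log2 signals cover 43603 gene probes, besides 58 control rows. Background treatment is not given in the sources used here. Quantile normalization gives each array the same distribution, so differences are relative to the other probes. Over 8 spiked-in controls above the floor, model minus control had a median of -0.46 and recovery minus control of 0.07.

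All 3 value columns were used, with Python 3.11.15, numpy 2.4.6 and pandas 2.3.3. The floor was the 40th percentile of the gene probes, present and absent calls were not used here, and the depth of an array is not defined, so that precision is limited by the number of arrays. With 1 array per group only values, counts and bounds were computed. Where only 1 of the compared values was at the floor, the fold is given as a minimum. The ratios of the study's differential gene table were put on the log2 scale and served only to match names, within 0.006 for both ratios. None of the table's values is given. The genes named are those with such a match, and 2 probes without a name were chosen after their values had been seen. Matching by the median of a probe set was also added after the values had been seen, and the counts of listed genes use it. The probes, the 18 gene lists and the limits were chosen with earlier results of these data known. The selection and the matching were tested on simulated data. The alternatives changed the floor, the limits, the scaling, the matching tolerance and the unit counted, 1 at a time.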

Additional observations from a re-analysis of the deposited data

How the results depend on the processing

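The number of probes transiently high in model was 141. It was 242 with no floor, of which 72 were among the 141, 92 with the floor at the 50th percentile (81 shared), 58 with the floor at the 60th percentile (46 shared), 266 with a rise limit of 1.5, 78 with a rise limit of 2.5 and 261 when the arrays were shifted to equal medians of the spiked-in controls (140 shared). Counted as probe sets by their median, an alternative chosen after seeing the data, it was 48. It stayed within 1.5 times of 141 with a return limit of 0.25 (119) or 1 (199), with equal array medians (136) and without the further NPY and SYT1 probes (134). A name was given to 9 probes, to 4 of them with a matching tolerance of 0.003 and to 45 when set medians were allowed, which was also chosen after seeing the data. Of the 9 singly named probes, 4 kept a difference of at least 2 between model and control with the floor at the 50th percentile and 3 with the floor at the 60th (RLA-DMA, RGS10 and LOC100008895). The count of 26 neuronal genes at least 2-fold higher in model than in control became 46 with no floor, 16 with the floor at the 50th percentile and 10 at the 60th. Of 120 values of the 24 named genes under the 3 other floor settings and the 2 other scalings, 92 kept their side of the limit of 2, 18 dropped below it, 10 moved above it and 0 changed direction. A change of floor cannot reverse a difference, so for the floor settings that last count was fixed in advance. The 92 include values of genes already under 2 by set median. OMG and RIT2, for example, fell to 0 with the floor at the 60th percentile and still kept their side. Where an alternative changed a value, the cause was not tested beyond what the alternative itself sets.

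No paired analysis was possible because each group has 1 array. No replicate was left out, since each group has only that 1 array. Control and recovery values of STMN2, NEFM, RTN1, ELAVL4 and PCSK1N lie below the floor, and their differences are minimum sizes only.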
